A study of Mus musculus with 6 samples.

Results

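The 45 genes described here build and drive mitosis: centromere and kinetochore proteins, the spindle checkpoint, mitotic kinases and cyclins, spindle motors and the cytokinesis machinery. They were taken by symbol from a fixed list. All 45 were among the 16426 genes of the deposited table, and all 45 passed the expression filter of at least 1 FPKM in at least 3 of 6 libraries, which left 10804 genes for testing. FPKM is fragments mapped to a gene, scaled to transcript length and to the size of the library, so levels can be compared between genes. The cells were 4T1-LM3, a mouse mammary carcinoma line, grown in conditioned medium (CM), that is, medium carrying what other cells released. In 3 libraries the medium came from matrix fibroblasts (MFs) rich in Tdo2, the enzyme that opens the route from tryptophan to kynurenine (Tdo2high MFs CM), and 3 libraries received Control CM. The labels give neither the cell source of the control medium nor the time of exposure, and do not state whether replicates came from separate cultures; the p-values therefore reflect the spread among 6 libraries, possibly technical only. The comparison asked how the fibroblast medium affected the fate of tumor cells, here through their mitotic genes.

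Before chromosomes part, a kinetochore assembles on each centromere and binds spindle microtubules. Checkpoint proteins on kinetochores that lack microtubules hold back the anaphase-promoting complex (APC/C), a ubiquitin ligase, until all chromosomes are attached. CDK1 with its cyclins, the Polo and Aurora kinases and several kinesins drive entry, alignment and division. Most of these genes are transcribed late in the cell cycle, so their mRNA in a culture tracks its dividing cells, and Ki-67, the product of Mki67, is the usual proliferation marker in breast tumors. In bulk RNA, fewer cells in division and less RNA per cell cannot be told apart.

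Most of the mitotic genes stayed close to their control level. Mki67, Cenpf and Cenpe rose and Dsn1 fell, each by less than 20%, and the other 41 did not pass the test. Over the 45 genes the median log2 fold change was 0.00015, with 23 values above 0 and 22 below, beside a median of -0.014 over all tested genes. Called higher were 3 of 45 genes, against 3.35% of all tested genes, and called lower 1 of 45, against 4.06%. In either direction that is 8.89% of the mitotic genes beside 7.41% of all tested genes (801 genes, 362 higher and 439 lower; 440 higher and 356 lower once GC content and length were corrected for per library), so the count as such is near the background. Calls are adjusted p under 0.05 by limma on log2(FPKM + 1) over all tested genes. The groups did not overlap for 9 of the 45 (20%), 5 higher and 4 lower with Tdo2high MFs CM, against 29.2% of all tested genes. Of the 41 genes that did not pass, 39 had a 95% interval that lay wholly within a 1.2-fold change either way, and the remaining 2 were Cenpt and Cenpm. This margin is wider than each of the 4 called changes. Among the 39, the intervals of Cenpa, Ccnb2, Anln and Ect2 did not include 0. Neither did that of Cenpt, outside the 39 (-0.30 to -0.028).

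**Figure D1:**
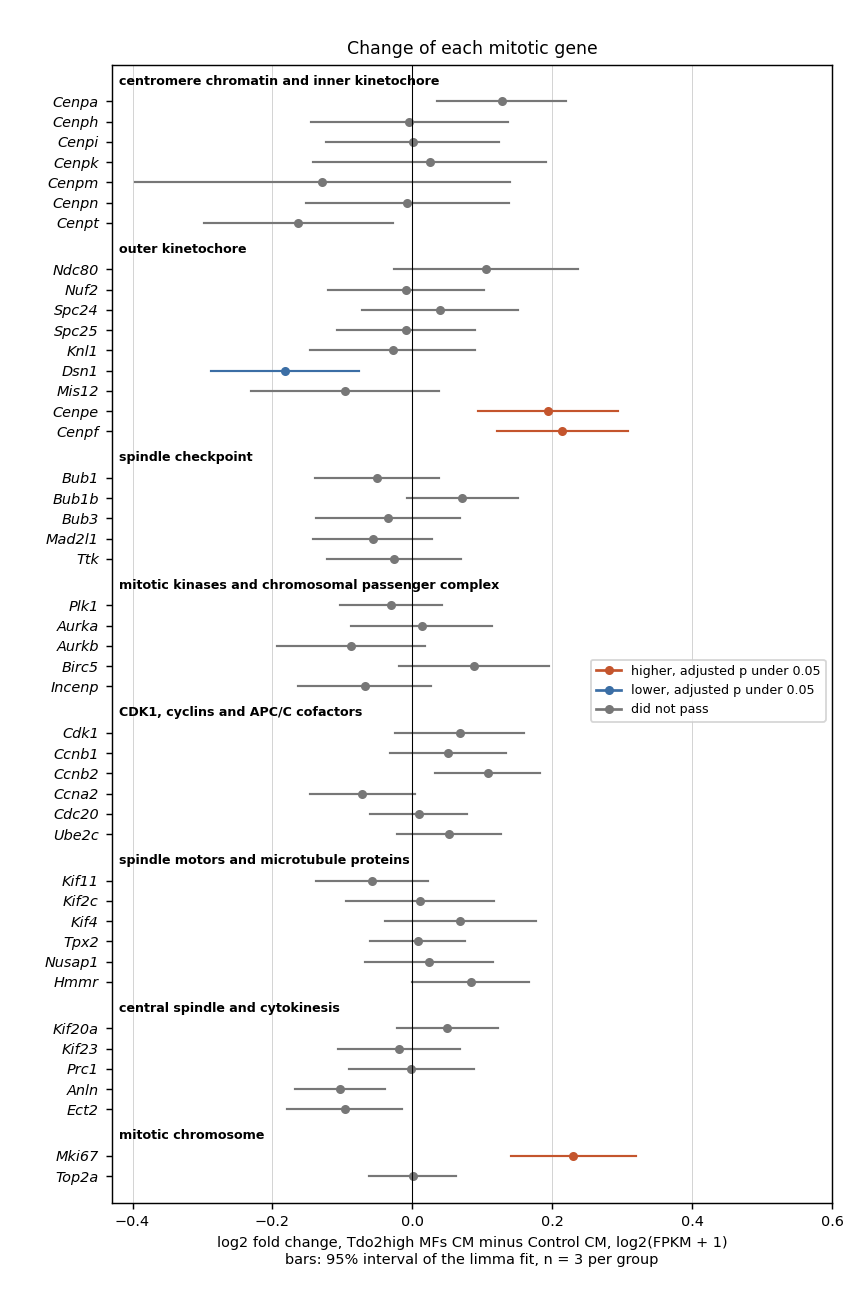
Log2 fold change of each of the 45 mitotic genes (x axis, Tdo2high MFs CM minus Control CM on the log2(FPKM + 1) scale), grouped by role, with the 95% interval of the limma fit as a bar (3 libraries per group). Mki67, Cenpf and Cenpe lie right of 0 at 0.19 to 0.23 and Dsn1 lies left at -0.18, while the 41 grey genes range from -0.16 to 0.13.

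No library stood apart for these genes. The summed FPKM of the 45 genes was 1220 to 1247 with Control CM and 1229 to 1270 with Tdo2high MFs CM, and the ranges overlapped. FPKM over all genes summed to between 438603 and 447415 per library, and read depth is unknown. Within a group the coefficient of variation had a median of 3.95% over the 45 genes and 4.2% over all tested genes. The keratins Krt8 and Krt18 lay between 264 and 382 FPKM in every library. Krt7, however, reached at most 0.59 FPKM, and the epithelial markers Epcam and Cdh1 did not exceed 0.11 FPKM. Krt18 was at 347 to 369 FPKM with Control CM and 373 to 382 FPKM with Tdo2high MFs CM. Neither Krt8 nor Krt18 passed the test. Of the 7 fibroblast markers listed there, 3 never reached 1 FPKM; Col1a1 reached at most 0.12 FPKM, and Lum and Col1a2 were listed at 0 with Tdo2high MFs CM. Among the expressed ones, Dcn went from a mean of 15.5 to 10.9 FPKM, Fap from 3.997 to 3.04 FPKM and Pdgfra from 41.9 to 47.3 FPKM. Pdgfrb, the other expressed one, had means of 23.6 and 23.1 FPKM. Of the 4 fibroblast markers tested, 1 was called higher and 2 lower (75% called, against 7.41% of all tested genes). The summed level of that list was 84.1 to 86.6 FPKM with Control CM and 83.4 to 86.0 with Tdo2high MFs CM, a sum that joins rises and falls. All 4 lymphocyte markers, 3 of 4 myeloid markers and 2 of 4 endothelial markers stayed below 1 FPKM; the myeloid sum was 6.11 to 8.33 and 7.85 to 9.82 FPKM, nearly all of it Cd14, and the endothelial sum 63.4 to 64.0 and 61.0 to 62.0 FPKM, mostly Eng. The part of these cells in the results was not tested.

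Mki67 encodes Ki-67, a large protein that coats mitotic chromosomes and keeps them apart. It stood at 33.9, 33.4 and 30.8 FPKM in the 3 Control CM libraries and at 37.6, 39.5 and 38.4 FPKM in the 3 Tdo2high MFs CM libraries. Every library with the fibroblast medium was above every control. The mean went from 32.7 ± 1.65 to 38.5 ± 0.988 FPKM (SD, n = 3 per group), a rise of 17.7%, with a log2 fold change of 0.23 ± 0.040 (SE; adjusted p = 0.00911). That call held in all 18 alternative analyses, including each fit without 1 library, with adjusted p between 0.00635 and 0.0422. Without the lowest control library, replicate 3, the log2 fold change was 0.19.

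Cenpf and Cenpe encode giant coiled-coil proteins of the kinetochore's outermost layer, the corona. Cenpf binds microtubules and the nuclear envelope, and Cenpe is a kinesin that carries chromosomes to the spindle equator. Cenpf was at 10.3, 10.2 and 9.91 FPKM with Control CM and at 12.3, 11.6 and 11.8 FPKM with Tdo2high MFs CM, so the groups did not overlap. Its mean rose by 17.6%, with a log2 fold change of 0.21 ± 0.042 (adjusted p = 0.0153). The call narrowly ended without Control CM replicate 3 (adjusted p = 0.0533) and without Tdo2high MFs CM replicate 1 (0.0552), where the log2 fold change was 0.20 and 0.19. Cenpe was at 10.5, 10.7 and 10.03 FPKM with Control CM and 12.2, 11.6 and 12.4 FPKM with Tdo2high MFs CM, again with every value of the second group above the first. It rose by 15.7%, with a log2 fold change of 0.19 ± 0.045 (adjusted p = 0.0295). This call was less stable and ended in 7 of 18 alternatives: without Control CM replicate 1 (adjusted p = 0.0761) or 3 (0.0927), without Tdo2high MFs CM replicate 1 (0.0816) or 3 (0.102), with no filter on low values (0.0734) and in both fits with a replicate block (0.0635 and, with the GC and length correction, 0.0742). Over all alternatives its log2 fold change stayed between 0.17 and 0.22.

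Dsn1 is a subunit of the Mis12 complex, which ties the inner kinetochore to the microtubule-binding layer. It was at 10.4, 10.5 and 10.2 FPKM with Control CM and at 9.56, 8.69 and 8.74 FPKM with Tdo2high MFs CM, with all 3 of the latter below the controls. The mean fell by 12.96%, with a log2 fold change of -0.18 ± 0.048 (adjusted p = 0.0461). This was the weakest of the 4 calls: it ended in 11 of 18 alternatives. Outside the fits without a library these were scaling by the median of ratios (adjusted p = 0.0565), quantile normalization (0.0622), no trend (0.0579), no filter (0.102) and the replicate block, without (0.0674) and with the GC and length correction (0.0721). Among the fits without a library it held only without Tdo2high MFs CM replicate 1 (0.0346). It ended without Control CM replicate 1 (0.116), 2 (0.109) or 3 (0.0877) and without Tdo2high MFs CM replicate 2 (0.144) or 3 (0.139; without that library the log2 fold change was -0.16). Its partner Mis12, for which the complex is named, was at 11.2, 10.96 and 11.9 FPKM with Control CM and 10.2, 11.6 and 9.85 FPKM with Tdo2high MFs CM. Those values overlapped, and Mis12 did not pass (-0.096, adjusted p = 0.371).

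**Figure D2:**
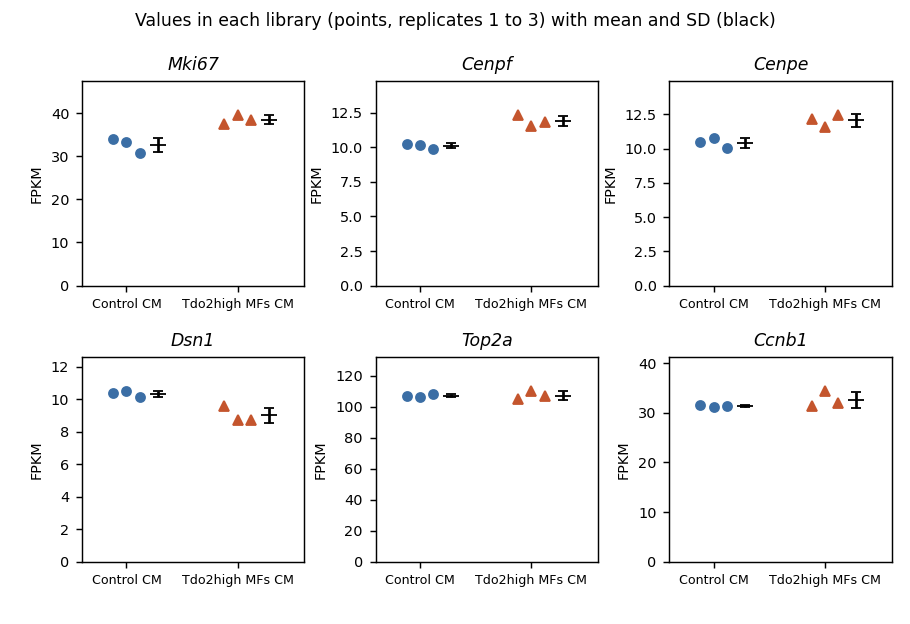
FPKM (y axis, from 0) in each library for the 4 mitotic genes that passed the test, with Top2a and Ccnb1 for comparison; points are replicates 1 to 3, and the black mark and bar are the mean and SD. The groups are apart for Mki67, Cenpf, Cenpe and Dsn1 and overlap for Top2a and Ccnb1.

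On GRCm38, Mki67 lies on chromosome 7 from 135689784 to 135716450, Cenpf on chromosome 1 from 189640606 to 189688107, Cenpe on chromosome 3 from 135212563 to 135273540 and Dsn1 on chromosome 2 from 156995062 to 157007075, per RefSeq. The 3 genes that rose have the 3 longest transcripts among the 45, at 11130 nt for Cenpf, 10061 nt for Mki67 and 7910 nt for Cenpe (longest GENCODE M21 basic transcript), and the median of the 45 was 3026 nt. Over the 562 tested genes with transcripts of 8000 nt or more, the median log2 fold change was 0.0030, with 3.02% called higher and 1.78% lower. Over all tested genes the median was -0.014, with 3.35% called higher and 4.06% lower. Genes with transcripts from 2000 to below 3000 nt had a median of -0.021. The next longest of the 45, Knl1 at 7800 nt and Mad2l1 at 7557 nt, had -0.028 and -0.056 and did not pass. For Mad2l1 that length exceeds its whole RefSeq span, chromosome 6 from 66535221 to 66541107. Its length is therefore uncertain. Counting the mitotic genes outside the 45 as well, 19 had transcripts of at least 6000 nt, Mad2l1 among them. The 16 of these 19 that did not pass ranged from -0.22 to 0.057, with a median of -0.016. Aspm, a spindle pole protein gene of 9867 nt, had 0.035, and the cytokinesis kinase gene Cit of 9514 nt had -0.22 (adjusted p = 0.0776). These genes and length limits were chosen after the values were seen, and whether length had a part in the 3 rises was not tested. After correction for GC content and length, the 3 genes still passed, at 0.22 for Mki67 (adjusted p = 0.0103), 0.19 for Cenpf (0.0193) and 0.18 for Cenpe (0.0366), and Dsn1 passed at -0.18 (0.0484).

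**Figure D3:**
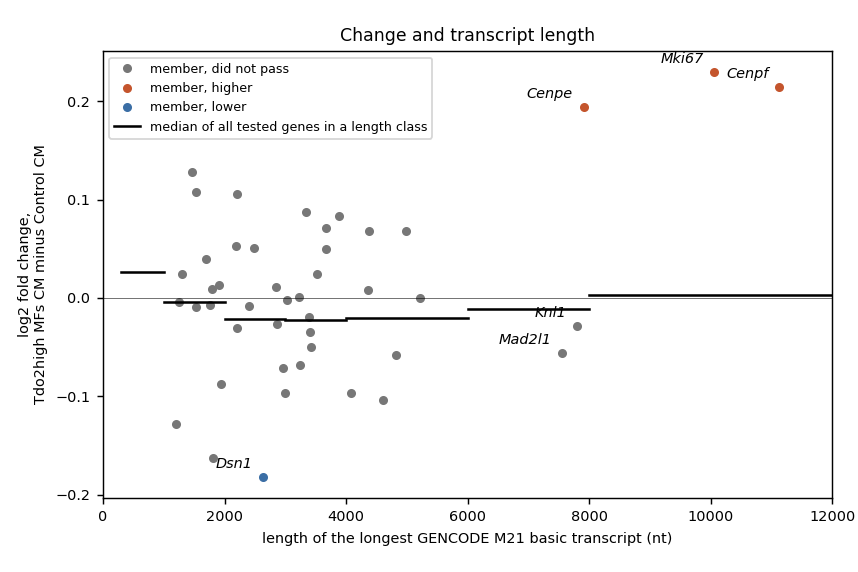
Log2 fold change (y axis) of the 45 mitotic genes against the length of their longest transcript in nt (x axis); black lines are medians of all tested genes in classes of length. Mki67, Cenpf and Cenpe are at the upper right, while Knl1, nearly as long as Cenpe, is just below 0. So is Mad2l1, whose length is uncertain. The medians of all genes stay between -0.022 and 0.027.

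The promoters of mitotic genes typically carry a cell cycle homology region (CHR), read by the MuvB complexes with B-MYB and FOXM1, and CCAAT boxes, bound by NF-Y. RefSeq windows (GRCm38.p6) of 300 bases, from 250 before to 50 after a start, were found for 39 of the 45 genes (44 windows). A CHR word (TTTGAA or TTCGAA, either strand) was present in 68.2% of the 44 windows and in 19.2% of all 32851 promoters of the table; CCAAT on either strand was in 77.3% and 37.4%. Both words stood in 59.1% of the windows and 7.52% of all promoters. An E2F-type word (TTTGGCGC or TTTCCCGC, either strand) was in 4.55% and 1.56%. The windows of S phase genes, 30 for 25 genes, had a CHR word in 20%, CCAAT in 63.3% and an E2F-type word in 33.3%. Among the 39 genes with a window, words overlapped each other in the window of Ube2c alone.

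The 4 genes that passed the test are shown with 2 that did not, Top2a and Ccnb2, because the same words occur in both. The capitals mark the words above on either strand, each sequence runs 5′ to 3′ along the gene's own strand, and position 1 is the transcript start that RefSeq gives for the window. Mki67 is at chr7:135716330-135716629, minus strand; Cenpf at chr1:189688037-189688336, minus strand; Cenpe at chr3:135212313-135212612, plus strand; Dsn1 at chr2:157007026-157007325, minus strand; Top2a at chr11:99024140-99024439, minus strand; Ccnb2 at chr9:70421505-70421804, minus strand.
Mki67: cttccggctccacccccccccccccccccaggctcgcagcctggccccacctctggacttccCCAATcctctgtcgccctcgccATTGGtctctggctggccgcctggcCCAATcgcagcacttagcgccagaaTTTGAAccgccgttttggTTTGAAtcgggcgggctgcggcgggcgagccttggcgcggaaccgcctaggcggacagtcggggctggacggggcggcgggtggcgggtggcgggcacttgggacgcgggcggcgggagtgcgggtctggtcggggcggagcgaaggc
Cenpf: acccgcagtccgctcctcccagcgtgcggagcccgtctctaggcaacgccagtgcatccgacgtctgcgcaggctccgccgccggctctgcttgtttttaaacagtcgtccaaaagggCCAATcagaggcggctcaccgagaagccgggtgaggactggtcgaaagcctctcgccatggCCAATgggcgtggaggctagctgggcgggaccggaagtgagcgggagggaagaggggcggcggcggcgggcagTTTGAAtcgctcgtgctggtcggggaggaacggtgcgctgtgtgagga
Cenpe: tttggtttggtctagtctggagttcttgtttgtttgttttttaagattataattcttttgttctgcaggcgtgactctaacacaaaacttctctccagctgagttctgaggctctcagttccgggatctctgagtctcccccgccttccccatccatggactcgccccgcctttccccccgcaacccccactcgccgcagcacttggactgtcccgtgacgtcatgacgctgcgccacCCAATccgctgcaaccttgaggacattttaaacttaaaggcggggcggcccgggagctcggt
Dsn1: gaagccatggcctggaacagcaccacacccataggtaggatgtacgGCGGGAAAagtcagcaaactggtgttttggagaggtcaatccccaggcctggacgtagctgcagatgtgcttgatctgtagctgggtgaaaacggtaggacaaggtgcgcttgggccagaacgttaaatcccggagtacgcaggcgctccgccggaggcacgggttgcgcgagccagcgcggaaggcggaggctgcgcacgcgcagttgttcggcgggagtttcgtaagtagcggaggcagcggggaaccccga
Top2a: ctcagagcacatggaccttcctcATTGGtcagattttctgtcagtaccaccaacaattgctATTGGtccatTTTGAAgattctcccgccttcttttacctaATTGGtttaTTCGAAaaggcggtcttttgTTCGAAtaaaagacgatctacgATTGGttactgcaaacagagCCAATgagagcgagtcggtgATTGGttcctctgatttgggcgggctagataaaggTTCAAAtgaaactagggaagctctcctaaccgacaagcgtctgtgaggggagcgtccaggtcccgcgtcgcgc
Ccnb2: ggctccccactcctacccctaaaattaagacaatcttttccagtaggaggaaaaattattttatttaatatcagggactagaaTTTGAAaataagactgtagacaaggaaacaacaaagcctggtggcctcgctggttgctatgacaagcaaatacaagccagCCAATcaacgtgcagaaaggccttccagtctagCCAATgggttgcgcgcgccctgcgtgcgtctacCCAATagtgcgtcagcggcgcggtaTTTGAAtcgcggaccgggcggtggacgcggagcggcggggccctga

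Mki67 and Cenpf hold both words, with a CHR word at positions -116 and -98 in Mki67 and at 3 in Cenpf, next to the start of the window's transcript. The gene ends of Mki67 and Cenpf given above, 135716450 and 189688107, lie before position 1 within these windows. The positions therefore depend on the start used. Cenpe holds 1 CCAAT, at -12, and no CHR word in this window. Dsn1 has neither of these words and an E2F-type word at -204. Top2a, whose mRNA had a log2 fold change of 0.00015, holds CHR words at -179, -140, -120 and -23, and Ccnb2 holds CHR words at -167 and 5 and CCAAT at -87, -54 and -21. Of the 39 genes, 23 had a window with both words. These matches describe letters in a window and show no binding.

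Mitotic chromosome structure is represented by Top2a beside Mki67. Top2a encodes the topoisomerase that untangles sister chromatids, and it was the most abundant of the 45 genes. Its values were 107, 106 and 108 FPKM with Control CM and 105, 110.0 and 107 FPKM with Tdo2high MFs CM, which overlap. The means were 107 ± 1.05 and 107 ± 2.67 FPKM, and the 95% interval of the log2 fold change was -0.062 to 0.063, its sign turning with the scaling. The 2 chromosome markers of proliferation thus gave different results: Mki67 passed the test and Top2a did not, though the difference between them was not tested.

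**Figure D4:**
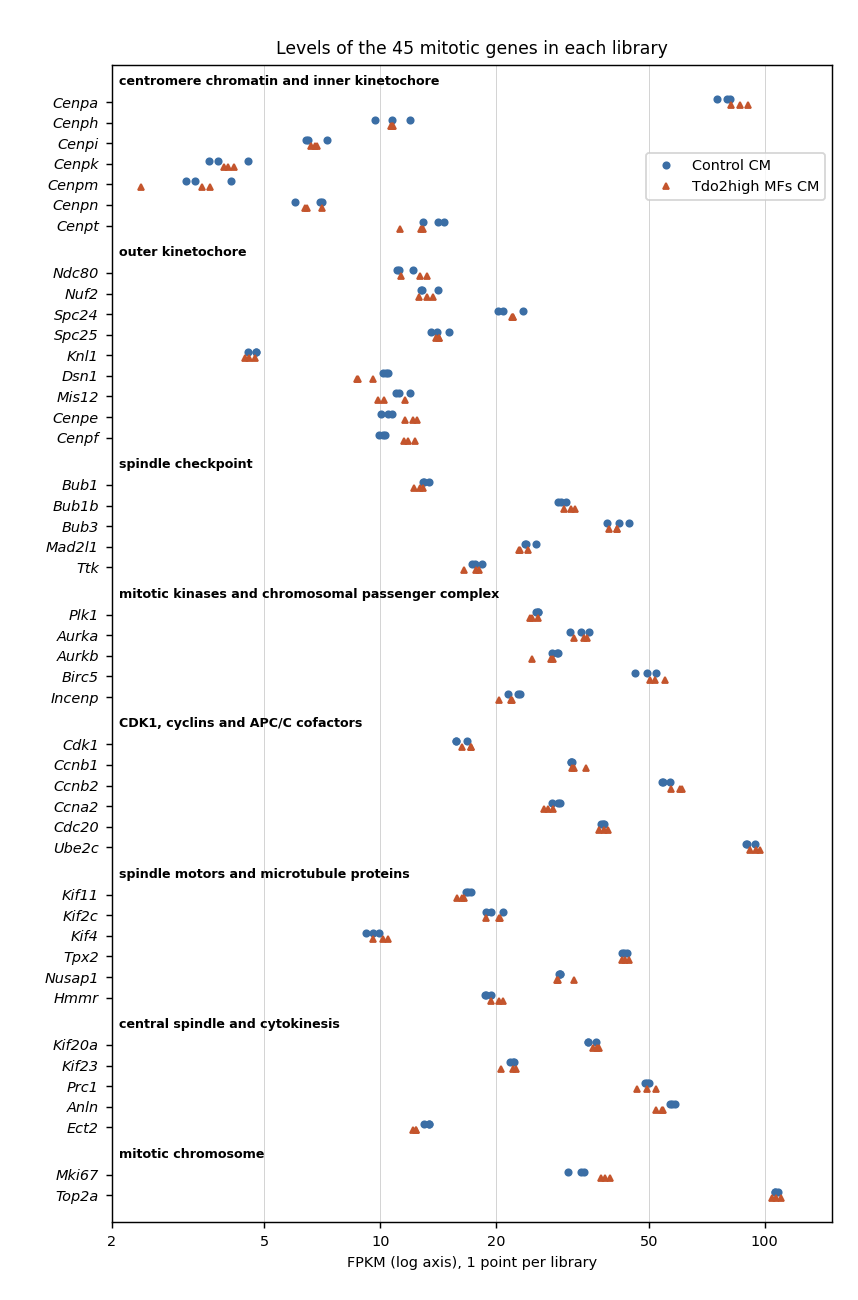
FPKM of the 45 mitotic genes in each of the 6 libraries (x axis, log scale), grouped by role, circles for Control CM and triangles for Tdo2high MFs CM. Top2a, Ube2c and Cenpa are the most abundant and Cenpm, Cenpk and Knl1 the least, and for most genes circles and triangles overlap.

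Centromere chromatin and the inner kinetochore had 7 genes, none of which passed, with a median log2 fold change of -0.0042. Cenpa, the histone H3 variant that marks the centromere, was at 81.2, 80.04 and 75.2 FPKM with Control CM and 81.98, 86.3 and 90.4 FPKM with Tdo2high MFs CM. The groups lay just apart, with a log2 fold change of 0.13 (95% interval 0.036 to 0.22, adjusted p = 0.0932). Cenpt, which links centromeric DNA to the Ndc80 complex, had a value below 0. It was at 12.9, 14.2 and 14.6 FPKM with Control CM and 12.8, 11.3 and 12.96 FPKM with Tdo2high MFs CM, overlapping, at -0.16 (adjusted p = 0.138). The least expressed of the 45 was Cenpm, a subunit of the complex that also holds Cenph, Cenpi and Cenpk. Its values of 3.13, 4.09 and 3.30 FPKM and 2.38, 3.61 and 3.44 FPKM overlapped, and the interval was the widest of the 45 (-0.40 to 0.14; adjusted p = 0.560). Cenph, Cenpi, Cenpk and Cenpn, the last a reader of the Cenpa nucleosome, had log2 fold changes of -0.0042, 0.00044, 0.025 and -0.0072. The signs of Cenph, Cenpi and Cenpn flipped under another scaling.

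In the outer kinetochore, 2 of 9 genes rose and 1 fell (33.3%, against 7.41% of all tested genes), and all 3 were described above. The list was chosen with earlier results known, and its share was not tested. Of 30 other centromere and kinetochore genes, 0 passed. The Ndc80 complex, the main microtubule clamp, has 4 subunits. Ndc80 was at 11.04, 11.2 and 12.1 FPKM with Control CM and 11.3, 12.7 and 13.2 FPKM with Tdo2high MFs CM, overlapping in the lower values, at 0.11 (95% interval -0.026 to 0.24, adjusted p = 0.315). Its partner Nuf2 had -0.0088, and the inner pair Spc24 and Spc25 had 0.040 and -0.0090; the signs of Nuf2 and Spc25 flipped under the median of ratios and quantile normalization. In level, Spc24 stood above the rest, at 21.5 ± 1.71 FPKM with Control CM, beside 11.5 ± 0.592 for Ndc80, 13.3 ± 0.788 for Nuf2 and 14.2 ± 0.778 for Spc25. Knl1, the scaffold for checkpoint proteins, averaged 4.68 ± 0.127 FPKM in the controls and 4.57 ± 0.136 FPKM with the fibroblast medium.

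The 5 checkpoint genes did not pass either, with a median of -0.035. Bub1, a kinase that marks the centromere and recruits other checkpoint proteins, was at 13.4, 12.9 and 13.02 FPKM with Control CM and 12.2, 12.7 and 12.96 FPKM with Tdo2high MFs CM, overlapping (-0.050, adjusted p = 0.481). Bub1b, which encodes BubR1, the APC/C inhibitor, was the only one of the 5 above 0, at 0.072 (adjusted p = 0.257). Its binding partner Bub3 had -0.035, Mad2l1, the other inhibitory subunit, -0.056, and the kinase Ttk, which starts checkpoint signalling, -0.026.

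Among mitotic kinases and the chromosomal passenger complex, 0 of 5 genes passed. Plk1, the Polo kinase of mitotic entry, was at 25.4, 25.8 and 25.7 FPKM with Control CM and 24.6, 25.8 and 24.9 FPKM with Tdo2high MFs CM (-0.031, 95% interval -0.10 to 0.042). Aurka, the spindle pole kinase, was at 31.2, 34.8 and 33.3 FPKM and 33.8, 34.5 and 31.9 FPKM in the same order (0.013, 95% interval -0.087 to 0.11). Both overlapped between the groups. Aurkb is the catalytic subunit of the passenger complex, which corrects faulty attachments. It was at 27.9, 29.1 and 28.9 FPKM with Control CM and 28.2, 24.8 and 27.8 FPKM with Tdo2high MFs CM, where replicate 2 was the lowest of the 6 (-0.088, adjusted p = 0.301). Birc5, which encodes survivin and brings the complex to centromeres, was at 45.99, 52.2 and 49.5 FPKM and 50.2, 51.9 and 54.9 FPKM (0.088, adjusted p = 0.305). The scaffold gene Incenp had -0.068, so members of this 1 complex lay on both sides of 0.

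CDK1, its cyclins and the APC/C cofactors had a median of 0.052, with 5 of 6 genes above 0 (4 on the TPM scale, where Cdc20 turned) and none past the test. Cdk1, the kinase that drives entry into mitosis, was at 15.7, 15.8 and 16.9 FPKM with Control CM and 17.3, 16.4 and 17.2 FPKM with Tdo2high MFs CM (0.068, 95% interval -0.024 to 0.16). Ccnb1, cyclin B1, was at 31.6, 31.3 and 31.4 FPKM and 31.5, 34.4 and 31.96 FPKM (0.050, adjusted p = 0.455). Both sets of values overlapped. Ccnb2, cyclin B2, was at 54.04, 54.6 and 56.8 FPKM with Control CM and 57.2, 60.4 and 60.9 FPKM with Tdo2high MFs CM. Here the groups lay just apart, but the change of 0.11 did not pass (adjusted p = 0.0876). Ccna2, cyclin A2, which acts from S phase into early mitosis, was the gene below 0, at 29.3, 29.1 and 28.1 FPKM and 28.1, 26.7 and 27.3 FPKM (-0.071, adjusted p = 0.235). Cdc20, the activator of the APC/C, was at 37.6, 38.05 and 38.3 FPKM and 39.2, 38.3 and 37.2 FPKM (0.0088, 95% interval -0.060 to 0.078). Ube2c, the APC/C's ubiquitin-conjugating enzyme and second in level among the 45, went from 91.2 ± 2.70 to 94.6 ± 3.02 FPKM and did not pass (0.053).

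None of the 6 genes for spindle motors and microtubule proteins passed (median 0.017). Kif11, the kinesin that pushes the spindle poles apart, was at 17.2, 16.7 and 16.9 FPKM with Control CM and 15.8, 16.4 and 16.5 FPKM with Tdo2high MFs CM. Its groups did not overlap, yet at -0.058 it was far from the threshold (adjusted p = 0.366). Hmmr, a microtubule-binding protein of the spindle, had 0.083 (adjusted p = 0.215), and the chromokinesin Kif4 0.068. The depolymerizing kinesin Kif2c, the Aurora A activator Tpx2 and the microtubule bundler Nusap1 had 0.011, 0.0079 and 0.024, with Tpx2 below 0 on the TPM scale.

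Of the 5 genes of the central spindle and cytokinesis, 0 passed, though Anln and Ect2 were among the 9 mitotic genes (20%) with an unadjusted p under 0.05, a share below the 23.7% of all tested genes. Anln encodes anillin, a scaffold of the contractile ring. It was at 57.3, 58.5 and 56.9 FPKM with Control CM and 52.3, 53.9 and 54.3 FPKM with Tdo2high MFs CM, apart in all libraries, at -0.10 ± 0.029 (adjusted p = 0.0590; on the TPM scale it passed, at 0.0388). Ect2, the exchange factor that activates RhoA at the cell equator, was at 13.02, 13.4 and 13.4 FPKM and 12.4, 12.2 and 12.4 FPKM, likewise apart (-0.097, adjusted p = 0.148). Anln and Ect2 were lower with Tdo2high MFs CM in every library (mean change -7.04% and -6.992%), without passing the test. Kif23 and Prc1, which build the central spindle, and Kif20a, a kinesin acting there, had -0.019, -0.0018 and 0.050, with Prc1 above 0 under the median of ratios.

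Reads of some of these genes can be shared. Exons of 10 of the 45 overlap those of a gene on the opposite strand in GENCODE M21, most in Kif20a (29.3% of its exon bases, with Cdc23), Ube2c (22.8%, with Tnnc2), Kif4 (15.1%, with Pdzd11), Ccna2 (12.5%, with Exosc9) and Prc1 (11.1%, with Rccd1). Whether counting used strand is not given in the sources used here, so these values are uncertain. Pseudogenes carry the names of Ccnb1, Ccnb2 and Kif4. Mki67, Cenpf, Cenpe and Dsn1 are in neither set. Only pseudogenes named after a gene were looked for, so reads shared with other pseudogenes were not checked.

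Outside the 45, 124 further mitotic genes were tested in 7 lists: 0 were called higher and 3 lower, with a median of -0.013. That is 2.42% called, against 7.41% of all tested genes, whose median was -0.014. Values ranged from -0.23 to 0.21, with 51 above 0 and 73 below. The highest was that of the centromere gene Cenps, whose mean FPKM rose by 17.9%. Its groups lay just apart, but it did not pass (adjusted p = 0.0842). The 3 called genes were Cdca5, Tubg1 and Nfya. Cdca5 encodes sororin, which protects sister chromatid cohesion, and was at 8.75, 9.44 and 9.60 FPKM with Control CM and 7.78, 8.27 and 7.24 FPKM with Tdo2high MFs CM (-0.23, adjusted p = 0.0378). Tubg1, gamma-tubulin, which seeds microtubules, went from 26.2 ± 0.550 to 23.9 ± 0.580 FPKM (-0.13, adjusted p = 0.0487). Nfya, a subunit of the CCAAT-binding factor NF-Y, was at 14.3, 14.2 and 13.9 FPKM and 12.5, 12.6 and 12.1 FPKM, all 3 below the controls (-0.17, adjusted p = 0.0245). The Tubg1 call ended in 14 of 18 alternatives: in all 6 fits without a library (adjusted p from 0.0786 to 0.141), with the GC and length correction (-0.098, 0.108), with the replicate block without (0.0639) and with that correction (0.123), under the median of ratios (0.0772) and quantile normalization (0.0693), with no filter (0.0777), no trend (0.0875) and the robust fit (0.0508). The Nfya call ended in 7, namely all 6 fits without a library (0.0517 to 0.0869) and the block with the correction (0.0600). That of Cdca5 ended in 10: without Control CM replicate 2 (0.0980) or 3 (0.116) or Tdo2high MFs CM replicate 1 (0.0882) or 3 (0.117), with the block without (0.0583) and with the correction (0.0641), under the median of ratios (0.0504) and quantile normalization (0.0620), with no trend (0.0582) and with no filter (0.108). None passed of 30 other centromere and kinetochore genes (median -0.024), 8 condensin genes (-0.032), 17 APC/C genes (-0.017) or 15 genes of CDK1 control and other mitotic kinases (0.0086), nor any of 4 CDK inhibitors (0.030). In these 5 lists 5, 3, 1, 2 and 1 genes had an unadjusted p under 0.05 by limma. Those were 16.7%, 37.5%, 5.88%, 13.3% and 25% of the lists, against 23.7% of all tested genes. Of 17 mitotic transcription regulators 1 passed and 16 had values below 0 (median -0.050), beside 56.4% below 0 and a median of -0.014 over all tested genes. The list includes E2f1, E2f2, E2f3, E2f4, E2f7, E2f8, Rbl1 and Rbl2, E2F and RB family genes whose action is not confined to mitosis. All of these had values below 0, and the lean of the list was not tested. Foxm1, the activator of mitotic genes, was at 21.8 ± 0.439 and 21.5 ± 0.511 FPKM (-0.015, adjusted p = 0.839), with Mybl2, which encodes B-MYB, at -0.050.

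S phase genes act earlier in the cycle than mitosis. Of 32 tested, 13 were called lower (40.6%, against 4.06% of all tested genes) and 0 higher, with a median of -0.14 and 31 values below 0. That this list was lower was known from earlier results on these libraries. The 4 called genes with the lowest log2 fold changes were the licensing factors Cdt1, from 14.9 ± 0.755 to 12.2 ± 0.783 FPKM, and Cdc6, from 7.06 ± 0.196 to 5.72 ± 0.275 FPKM, the helicase factor Mcm10, from 11.1 ± 0.464 to 9.22 ± 0.624 FPKM, and Pole, a replicative polymerase, from 8.01 ± 0.335 to 6.73 ± 0.125 FPKM. Their log2 fold changes were -0.27, -0.26, -0.24 and -0.22, at adjusted p = 0.0173, 0.0153, 0.0263 and 0.0243. On the log2(FPKM + 1) scale these were the lowest of the list; in mean FPKM, Orc1 (-17.1%) and Ccne2 (-16.5%), which did not pass, had a lower percent change than Pole (-15.9%), and Orc1 also than Mcm10 (-16.7%). Without the expression filter none of the 4 passed (adjusted p from 0.0540 to 0.0850). The Cdt1 call also ended without Control CM replicate 2 (0.0539) or 3 (0.0537) or Tdo2high MFs CM replicate 1 (0.0510) or 2 (0.0600), and that of Cdc6 without Tdo2high MFs CM replicate 1 (0.0527) or 3 (0.0510). Mcm10 lost its call without Control CM replicate 2 (0.0610) or 3 (0.0870) or Tdo2high MFs CM replicate 2 (0.0906) or 3 (0.0805) and with the block, without (0.0505) and with the correction (0.0641). Pole lost its call without Control CM replicate 1 (0.0811) or 3 (0.0746), without each Tdo2high MFs CM library (0.0580 to 0.0725), and with the block and the correction together (0.0508). The count of 13 dropped to 10 without Control CM replicate 1, 7 without replicate 2 and 7 without replicate 3, and to 8, 6 and 7 without Tdo2high MFs CM replicates 1, 2 and 3. As a level, the mean log2(FPKM + 1) of the S phase genes was 3.89 to 3.91 in the Control CM libraries and 3.74 to 3.77 with Tdo2high MFs CM, and that of the 45 mitotic genes 4.42 to 4.45 and 4.43 to 4.47. The difference between the 2 means was 0.53 to 0.56 in the controls and 0.66 to 0.73 with Tdo2high MFs CM. It was wider in every library of the second group, and is given as a description with no test.

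**Figure D5:**
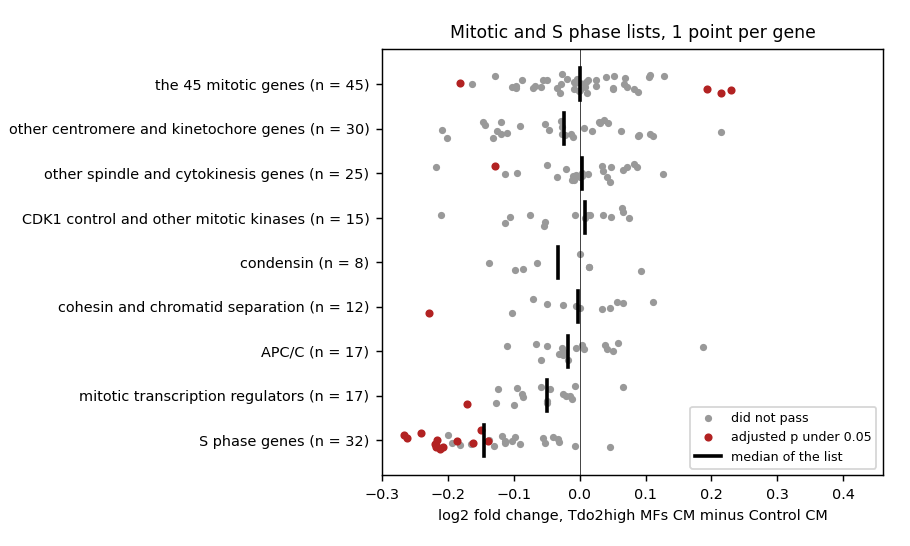
Log2 fold change (x axis) of every gene in the 45 mitotic genes, 7 further mitotic lists and the S phase list, 1 point per gene, red where adjusted p was under 0.05, with the median of each list as a black bar. The medians of the 45 genes and the other mitotic lists lie between -0.050 and 0.0086, and that of the S phase genes lies at -0.14.

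Within the groups, the mean deviation of the 45 genes from their group mean was compared with that of every other tested gene over the 6 libraries. The closest were E2f4, Stradb, Tcp11l1, Gid8 and Rab33b, with Pearson's r of 0.992 to 0.996. In all, 49 genes exceeded 0.95, over 6 values that share their group means, so this likeness is a description only.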

How the data were processed

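The authors deposited 1 table of FPKM for 6 libraries, per the file headers, rounded to 2 decimals; the build was GRCm38 per the submitters' processing notes. Aligner, quantifier and annotation: not given in the sources used here. FPKM already corrects for length and library size, so counts and read depth were not available and no count model or counting interval was used. The number of libraries sets the precision. Groups follow the titles. Genes with at least 1 FPKM in at least 3 libraries were tested as log2(FPKM + 1), which understates changes of weak genes, with limma 3.58.1 in R 4.3.3 (trend, two-sided, no block), Benjamini-Hochberg adjusted over all 10804 tested genes, threshold 0.05. A single value of 3 against 3 libraries cannot go below p = 0.1 by exact permutation, so none was run. A total of 26 symbols that had become dates were repaired through the gene number. The members and gene lists were chosen with earlier results of these data known. Values in every library are given for genes past the threshold, the 4 largest changes among the rest and 14 core genes. Outside the 45, up to 4 called genes per list are named. Aspm, Cit, Cenps, Foxm1, Mybl2, Orc1, Ccne2 and the other members given by library were chosen after their values were seen. The test was tried on simulated data with 200 changed genes among 10804. It recovered 13.2% of 1.1-fold, 57.4% of 1.2-fold and 96.2% of 1.5-fold changes, and 4.98% of its calls were false. Many changes of 1.2-fold or less would thus not pass. Lengths and GC content came from GENCODE M21 transcripts, 10633 tested genes, with smooths from mgcv 1.9.3 for the correction. The 18 alternatives changed the pseudocount, the filter, the scaling or the variance model, added a replicate block or a correction for GC and length, or dropped 1 library. Figures were drawn with matplotlib 3.10.9.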

Additional observations from a re-analysis of the deposited data

How the results depend on the processing

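The rises of Mki67, Cenpf and Cenpe and the fall of Dsn1 kept their direction in all 18 alternatives. The count of mitotic genes called higher was 3, and 1 to 3 without 1 library; that of genes called lower was 1, and 0 to 1 without 1 library. It was 0 with no filter on low values, under the median of ratios, under quantile normalization, with no trend, with the replicate block and with the block and GC and length correction together, and 2 on the TPM scale. S phase genes called lower numbered 13, 5 with no filter and 6 to 10 without 1 library. Over all genes 801 were called, 394 with no filter, 525 with no trend and 395 to 559 without 1 library. Signs that turned belonged to genes that passed in no analysis. Under the median of ratios the signs of Cenph (0.0075), Cenpn (0.0039), Nuf2 (0.0031), Spc25 (0.0030) and Prc1 (0.011) turned. Under quantile normalization the signs of Cenph (0.016), Cenpn (0.013), Nuf2 (0.0084), Spc25 (0.0077) and Top2a (-0.022) turned. On the TPM scale the signs of Cenpi (-0.0091), Cdc20 (-0.0013), Tpx2 (-0.0023) and Top2a (-0.010) turned. With the GC and length correction, with or without the block, the signs of Cenpi (-0.0018) and Top2a (-0.00023) turned. Without 1 library the signs of 18 genes turned in at least 1 fit: Cenph (-0.073 to 0.065), Cenpi (-0.028 to 0.051), Cenpk (-0.030 to 0.11), Cenpm (-0.21 to 0.012), Cenpn (-0.070 to 0.028), Nuf2 (-0.035 to 0.037), Spc24 (-0.0011 to 0.10), Spc25 (-0.041 to 0.031), Bub3 (-0.084 to 0.011), Ttk (-0.051 to 0.0094), Aurka (-0.028 to 0.049), Cdc20 (-0.0095 to 0.028), Kif2c (-0.019 to 0.050), Tpx2 (-0.0091 to 0.024), Nusap1 (-0.022 to 0.049), Kif23 (-0.045 to 0.017), Prc1 (-0.042 to 0.040) and Top2a (-0.019 to 0.017). Same-numbered libraries did not deviate together (r = -0.023, -0.030 and 0.018 over 10804 genes), and no library correlated best with its own number. The replicate block gave 622 calls over all genes, with Cenpf and Mki67 higher (2) and 0 mitotic genes lower, and 12 S phase genes lower. Requiring a mean of 5 FPKM left no value for Cenpk, Cenpm and Knl1. No depth is known, so its limits cannot be given.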
